A study of Mus musculus with 14 samples.

Results

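Metabotropic glutamate receptors are G protein-coupled receptors that respond to glutamate over seconds, and Homer proteins are scaffolds of the postsynaptic density that bind one group of them. Here 9 of these genes were followed in mouse hippocampus: the 6 receptor genes Grm2, Grm3, Grm4, Grm5, Grm7 and Grm8, and the 3 Homer genes Homer1, Homer2 and Homer3. They were taken by gene symbol from 16569 genes tested among 18722 genes with any value, and all 9 passed the filter on low values. The rule used no measured value, but the members were chosen with earlier results of these data known. Hippocampal RNA of C57BL6 mice was sequenced in 14 libraries. The mice were wild type or KMT2D+/bGeo, which carries 1 altered copy of the histone methyltransferase gene Kmt2d and is called mutant below. Each was given the LSD1 inhibitor TAK-418 by mouth, at 1 mg/kg per day in methylcellulose, or methylcellulose alone (vehicle), for 2 weeks from 2 weeks of age. LSD1 is an enzyme that removes methyl groups from histone H3. Every mouse was 30 days old at harvest. The vehicle groups had 3 wild-type and 3 mutant libraries, and the TAK-418 groups 5 wild-type and 3 mutant ones. The labels give no batch, litter or sex, and they do not state that each library is a separate animal, so p-values measure the spread between these libraries.

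The receptors fall into 3 groups by their coupling. Grm5 belongs to group I, which acts through Gq and phospholipase C, sits beside the synapse on dendritic spines, and holds Homer proteins at its C-terminal tail. Grm2 and Grm3 (group II) and Grm4, Grm7 and Grm8 (group III) act through Gi and Go, largely as brakes on transmitter release, and Grm3 is also made by astrocytes. Long Homer proteins carry a coiled coil that lets them cross-link Grm5 to Shank scaffolds and to inositol trisphosphate receptors. The short Homer1 form, known as Homer1a, lacks the coiled coil, is induced by neuronal activity and loosens that link.

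Several of these genes make alternative C-terminal or linker forms, and the sequences that tell them apart are shown first because the per-library values below are divided by them. All are coding sequence of GENCODE M21 transcripts on GRCm38, written 5′ to 3′. The capitals mark the stretch that belongs to one form and the lower-case letters are the shared or flanking bases. In the short Homer1 form the exon runs on past its splice site at chr13:93356080-93356113 on the plus strand and reaches a stop codon within 34 bases. In the long form as counted here the same exon is spliced to a 36-base exon at chr13:93386345-93386380. A transcript that splices this exon to any other one is counted in neither form.
Homer1 short form: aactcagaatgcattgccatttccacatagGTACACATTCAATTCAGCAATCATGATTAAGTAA
Homer1 long form: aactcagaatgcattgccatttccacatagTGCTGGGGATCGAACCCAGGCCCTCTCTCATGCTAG
Grm5 cassette exon: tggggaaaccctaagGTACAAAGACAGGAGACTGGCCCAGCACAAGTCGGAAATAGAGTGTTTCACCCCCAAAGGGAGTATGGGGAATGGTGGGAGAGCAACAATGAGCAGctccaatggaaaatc
Homer2 longer exon: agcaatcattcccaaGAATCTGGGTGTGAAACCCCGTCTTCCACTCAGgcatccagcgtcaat
Grm7 added exon: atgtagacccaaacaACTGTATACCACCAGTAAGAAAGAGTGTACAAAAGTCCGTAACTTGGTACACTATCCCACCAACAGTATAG

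The Grm5 cassette exon of 96 bases, at chr7:88116193-88116288 on the plus strand, adds 32 codons to the C-terminal tail of the receptor. The Homer2 stretch of 33 bases, at chr7:81618683-81618715 on the minus strand, adds 11 codons by use of an upstream splice site. The 71 coding bases of the Grm7 exon, at chr6:111501510-111501580 on the plus strand, replace the C-terminal end of the receptor with another one. The exon itself is 92 bases long, and only its coding bases are printed.

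Values are scaled abundances: the abundance the authors' assembly gives each transcript, which is per length, summed over a gene's transcripts and divided by a library factor. The relative depth, read from the step between low values, was 168 M fragments for replicate 1 of wild-type TAK-418 and between 35.1 and 60.2 M for the 13 others. Between 165 fragments (Grm8, wild-type vehicle replicate 3) and 81213 fragments (Grm5, wild-type TAK-418 replicate 1) stood behind a member in a library on this depth. Kmt2d ranged from 13.8 to 14.2 in wild-type vehicle, 10.6 to 14.4 in mutant vehicle, 12.5 to 18 in wild-type TAK-418 and 9.35 to 14.6 in mutant TAK-418 libraries, so genotypes overlapped in whole-gene Kmt2d. Hippocampal neuron markers were present in every library, with Slc17a7, the vesicular glutamate transporter of excitatory neurons, at 588 to 738 and Prox1, a dentate granule cell factor, at 30.1 to 43.3. The summed level of 10 choroid plexus markers was 5083 in mutant vehicle replicate 1 and 6512 in wild-type vehicle replicate 3, against 18.3 to 919 in the other libraries, and results were repeated without these 2.

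Grm5 had the highest level of the 9 genes, with a mean of 55.2 ± 3.79 (SD, n = 14), and stood above Homer1 in 14 of 14 libraries. Homer1 followed at 35.3 ± 9.53, Homer3 at 28.1 ± 5.25 and Grm2 at 24.9 ± 1.74. Neighbours in this stretch overlapped: Homer1 exceeded Homer3 in 11 of 14 libraries, and Homer3 exceeded Grm2 in 10 of 14. Grm7 came next at 19.2 ± 1.13 and lay below Grm2 in 14 of 14 libraries. Grm3, at 14.2 ± 1.11, exceeded Homer2, at 12.4 ± 1.40, in 13 of 14. Grm4 at 2.88 ± 0.362 and Grm8 at 2.38 ± 0.977 were the lowest, and Grm4 exceeded Grm8 in 10 of 14 libraries. The coefficient of variation over libraries was 5.89% to 12.5% for Grm2, Grm3, Grm4, Grm5, Grm7 and Homer2, against 18.7% for Homer3, 27.0% for Homer1 and 41.1% for Grm8.

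**Figure D1:**
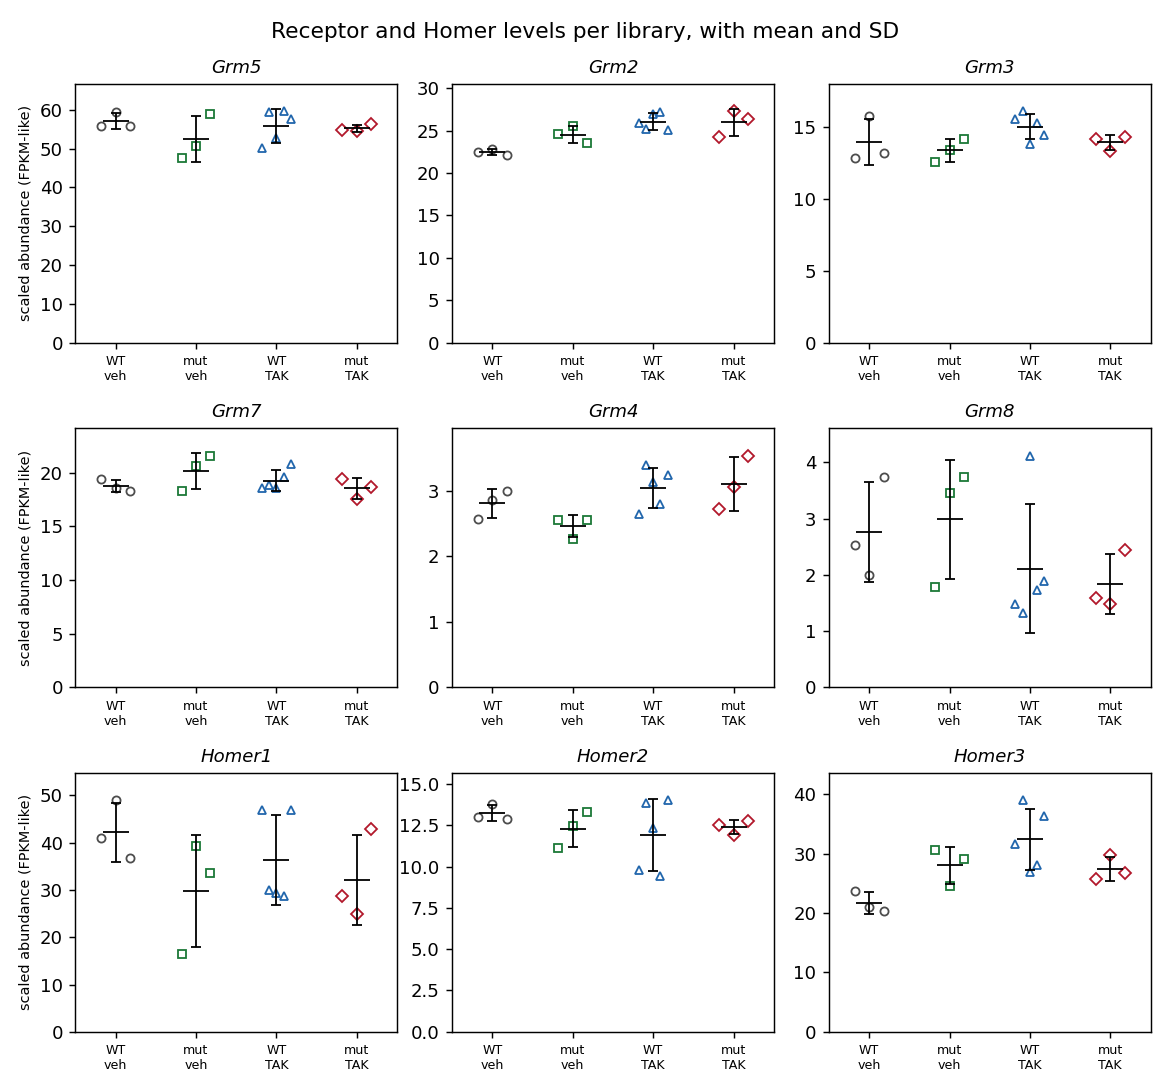
Scaled abundance (FPKM-like, linear axis from 0) of the 9 genes in each library, by group; WT is wild type, mut mutant, veh vehicle and TAK TAK-418; symbols are libraries, bars group means and whiskers SD. On this scaled axis Grm2 and Homer3 sit lowest in the 3 wild-type vehicle libraries, at 22.1 to 22.8 and 20.3 to 23.8, and Homer1 spreads from 16.5 to 49.0.

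None of the 9 genes passed an adjusted p of 0.05 in any of the 8 contrasts (limma on log2 values, Benjamini-Hochberg over 16569 genes). Few genes passed anywhere: 0.0% of all genes tested for genotype under vehicle, 0.00604% for TAK-418 in mutants, for TAK-418 in wild types, for treated mutants against vehicle wild types, for the genotype by drug interaction and for genotype over both treatments, and 0.0121% for genotype under TAK-418 and for TAK-418 over both genotypes. At an unadjusted p under 0.05 the count of members was 2 of 9 for genotype under vehicle, where 5.45% of all genes passed, and 1 of 9 for TAK-418 in mutants, where 4.39% did. It was 2 of 9 for TAK-418 in wild types (8.44% of all genes), 0 of 9 for genotype under TAK-418 (4.92%) and 2 of 9 for treated mutants against vehicle wild types (5.39%). It was 1 of 9 for the interaction (4.44%), 0 of 9 for genotype over both treatments (5.85%) and 3 of 9 for TAK-418 over both genotypes (8.26%). The members at this level were Grm2, Grm4 and Homer3, and contrasts that share a group are not independent of each other. The log2 differences of all 9 genes spanned -0.57 to 0.35 for genotype under vehicle (median -0.05, against 0 over all genes) and -0.32 to 0.55 for TAK-418 in wild types (median 0.04). They spanned -0.48 to 0.25 for TAK-418 in mutants (median 0.06) and -0.22 to 0.07 for genotype under TAK-418 (median -0.05).

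**Figure D2:**
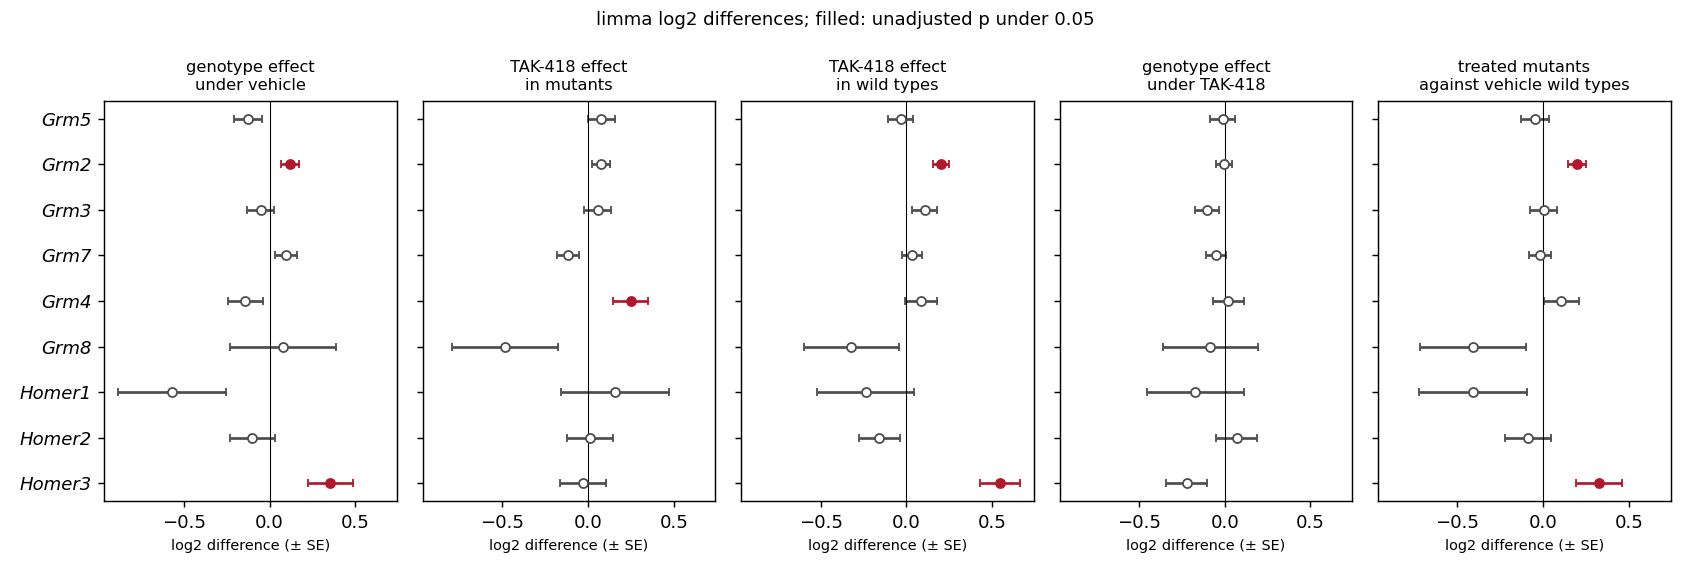
limma log2 differences (x axis, point and standard error) of the 9 genes in 5 contrasts; filled red points have an unadjusted p under 0.05 and none has an adjusted p under 0.05. Homer3 and Grm2 lie to the right of 0 in the contrasts against wild-type vehicle, at 0.55 and 0.20 for TAK-418 in wild types.

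Grm2, a presynaptic group II receptor, lies on chromosome 9 at 106643095 to 106656082 on the minus strand. Its level was 22.5, 22.8 and 22.1 in wild-type vehicle, 24.5, 25.6 and 23.5 in mutant vehicle, 25.9, 25.2, 27.0, 27.2 and 25.0 in wild-type TAK-418 and 24.2, 27.3 and 26.4 in mutant TAK-418 libraries. After scaling, the 3 wild-type vehicle libraries were the lowest of the 14 and overlapped with no other group. As deposited, mutant vehicle replicate 1 was at 20.8, below their 22.1, 23.3 and 23.5, and without scaling the log2 difference for genotype under vehicle was 0.03. The other groups overlapped with each other. The log2 difference for TAK-418 in wild types was 0.20 ± 0.05 (SE; limma adjusted p = 0.248). It was 0.12 ± 0.05 for genotype under vehicle (limma adjusted p = 0.880) and 0.20 ± 0.05 for treated mutants against vehicle wild types (limma adjusted p = 0.592). For TAK-418 over both genotypes it was 0.14 ± 0.04 (limma adjusted p = 0.340). Because all of the first 3 use the same 3 vehicle libraries, they rest on 1 low group. The difference over both genotypes uses these libraries in part. The Grm2 difference for TAK-418 in mutants, which does not use them, was 0.08 ± 0.05 (limma unadjusted p = 0.160).

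In the authors' deposited tables Grm2 was 12.9 FPKM in wild-type vehicle and 15.3 in wild-type TAK-418, values that come from 2 tables with no direct comparison. The authors' deposited table of mutant vehicle over wild-type vehicle gives 14.7 against 12.9 FPKM, a log2 fold change of 0.19 (q = 1.00). Nearly all Grm2 abundance came from 1 assembled transcript of 6 exons and 3164 to 3254 bases. In mutant vehicle replicate 3 it had 7 exons and 2602 bases. Multiplying abundance by length lowered the genotype difference under vehicle to 0.04 and left that of TAK-418 in wild types at 0.18.

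The 10 hippocampal neuron markers, a mix of granule cell, pyramidal cell and general excitatory genes, were mixed in sign for TAK-418 in wild types, with 6 higher and 4 lower. Of them, 5 were higher and 1 lower at an unadjusted p under 0.05 in this contrast, where 8.44% of all genes passed. None of the 10 passed the adjusted threshold. C1ql2, a secreted synaptic protein of granule cells, differed by 0.27 ± 0.06 (limma adjusted p = 0.194), Dsp, which encodes desmoplakin, by 0.47 ± 0.10 (limma adjusted p = 0.194) and Prox1 by 0.27 ± 0.08 (limma adjusted p = 0.408). Fibcd1, a CA1 marker, differed by 0.17 ± 0.06 (limma adjusted p = 0.453) and Camk2a, a kinase of excitatory neurons, by 0.12 ± 0.05 (limma adjusted p = 0.554). Wfs1, a marker of CA1 pyramidal cells, differed by -0.22 ± 0.08 (limma adjusted p = 0.483). These 6 markers were chosen after their values were seen. Summed, the 10 markers ranged from 3279 to 3381 in wild-type vehicle and from 2518 to 3823 in wild-type TAK-418 libraries. The 2518 is that of wild-type TAK-418 replicate 2, where Nrgn had its lowest value, 227 against a median of 1203. Their part in the Grm2 difference was not tested. In bulk tissue, fewer cells of a type and less RNA per cell cannot be told apart.

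Grm3, the other group II receptor, is on chromosome 5 at 9485541 to 9725170 and was assembled as 1 transcript in every library. It reached 12.9, 15.8 and 13.2 in wild-type vehicle, 12.6, 13.4 and 14.2 in mutant vehicle, 15.6, 16.1, 13.9, 15.3 and 14.4 in wild-type TAK-418 and 14.2, 13.4 and 14.3 in mutant TAK-418 libraries. All groups overlapped. The summed level of the 10 astrocyte markers also overlapped, at 1407 to 1546 in wild-type vehicle and 1087 to 1600 in wild-type TAK-418 libraries, and the 1087 is of replicate 1, where Aldoc is listed at 0.

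Among the group III receptors Grm7, a presynaptic receptor of the active zone on chromosome 6 at 110645581 to 111567230, was the most abundant. It stood at 19.4, 18.6 and 18.3 in wild-type vehicle, 18.3, 20.7 and 21.6 in mutant vehicle, 18.6, 18.8, 18.5, 19.6 and 20.9 in wild-type TAK-418 and 19.4, 17.6 and 18.6 in mutant TAK-418 libraries. The groups overlapped throughout. Grm4, on chromosome 17 at 27422387 to 27521403, was 2.57, 2.87 and 3.00 in wild-type vehicle, 2.56, 2.27 and 2.56 in mutant vehicle, 2.65, 3.40, 3.13, 2.79 and 3.24 in wild-type TAK-418 and 2.72, 3.06 and 3.53 in mutant TAK-418 libraries. After scaling the mutant vehicle libraries were the lowest, by a narrow margin: their highest was 2.561 and the lowest wild-type vehicle library 2.566. As deposited these groups overlapped, with mutant vehicle replicate 3 at 2.602 and wild-type vehicle replicate 1 at 2.522. The TAK-418 difference in mutants was 0.25 ± 0.10 on the log2 scale (limma adjusted p = 1) and that over both genotypes 0.17 ± 0.07 (limma adjusted p = 0.558). The difference in mutants was 0.11 with abundance times length, 0.16 with the highest transcript only and 0.17 without mutant TAK-418 replicate 3. The authors' deposited table puts Grm4 at 1.92 FPKM in mutant vehicle and 2.07 in wild-type vehicle (q = 1.00). Between 394 and 1943 fragments stood behind Grm4 in a library.

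Grm8, on chromosome 6 at 27275119 to 28135178, was the least abundant, with 165 to 871 fragments per library. It was 2.53, 2.00 and 3.75 in wild-type vehicle, 1.78, 3.45 and 3.74 in mutant vehicle, 1.48, 1.33, 4.11, 1.74 and 1.89 in wild-type TAK-418 and 1.59, 1.48 and 2.45 in mutant TAK-418 libraries. The groups overlapped, and the gene was assembled in 2 to 4 pieces per library. The highest values came with short pieces: the leading transcript had 920 to 1740 bases in the 4 libraries above 3.4 and 2457 to 3613 bases in the rest.

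Grm5, the group I receptor, lies on chromosome 7 at 87584168 to 88134907 on the plus strand. It was 55.8, 59.5 and 55.9 in wild-type vehicle, 47.6, 50.8 and 58.9 in mutant vehicle, 50.1, 59.3, 52.6, 59.6 and 57.6 in wild-type TAK-418 and 54.8, 54.5 and 56.3 in mutant TAK-418 libraries. All groups overlapped. In the authors' deposited tables its main locus was 41.5 FPKM in wild-type vehicle and 38.9 in mutant vehicle, and a second locus of the gene was at 0.612 and 0.641.

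The cassette exon shown above was measured as its share of the abundance of transcripts that span its site, which leaves out shorter assembled pieces. The share was 94.8%, 94.9% and 94.0% in wild-type vehicle, 94.7%, 100% and 92.6% in mutant vehicle, 92.7%, 93.4%, 100%, 100% and 93.8% in wild-type TAK-418 and 95.0%, 93.4% and 92.5% in mutant TAK-418 libraries. Where the share was 100%, in mutant vehicle replicate 2 and in wild-type TAK-418 replicates 3 and 4, no transcript without the exon was assembled, and the rest held 2.33 to 4.05 scaled units of it. In mutant TAK-418 replicate 2 transcripts with the exon held 32.8 of a Grm5 total of 54.5. The group means differed by -2.39 to 1.42 percentage points over 5 contrasts. The smallest of the 5 p-values was 0.321 (two-sided exact permutation test, 3 against 5 libraries, adjusted p = 0.826 over 10 share tests), and this test cannot go below 0.0179, or below 0.10 with 3 against 3.

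Homer1 is on chromosome 13 at 93299635 to 93405129 on the plus strand. Every library held 1 long and 1 short form. The gene's level was 41.0, 49.0 and 36.7 in wild-type vehicle, 16.5, 39.3 and 33.5 in mutant vehicle, 46.9, 29.9, 29.5, 28.7 and 46.9 in wild-type TAK-418 and 28.7, 24.9 and 42.9 in mutant TAK-418 libraries. The groups overlapped. Each group held libraries of a high set, with totals of 39.3 to 49.0, and of a low set, at 16.5 to 36.7. These sets lie close in the totals and apart in the long form, described next. For genotype over both treatments, where Homer1 had the smallest p of the 9 genes, the log2 difference was -0.37 ± 0.21 (limma adjusted p = 0.882). It ran from -0.49 to -0.11 over 21 alternatives of processing, and from -0.49 to -0.19 on leaving out 1 library in turn.

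The high and low sets follow where the assembly ended the long form. In 6 libraries, wild-type vehicle 1 and 2, mutant vehicle 2, wild-type TAK-418 1 and 5 and mutant TAK-418 3, it ended at chr13 93404691 to 93404815 and was 4364 to 4519 bases long. In the other 8 it ended at 93411644 to 93411801, past the annotated end of the gene, and was 11324 to 11795 bases long. The long form was at 29.3 to 34.2 in the first set and 15.6 to 18.9 in the second, with no overlap, and each treatment group held libraries of both. Abundance times length, which does not divide by the assembled end, was 132 to 154 in the first set and 179 to 217 in the second. Among the 6 libraries with the nearer end the long form was at 30.5 and 34.2 in wild-type vehicle, 29.3 in mutant vehicle, 32.7 and 31.7 in wild-type TAK-418 and 29.96 in mutant TAK-418. Among the 8 with the farther end it was at 18.9 in wild-type vehicle, 15.6 and 18.7 in mutant vehicle, 16.95 to 17.6 in wild-type TAK-418 and 17.4 and 15.7 in mutant TAK-418. Within each set the mutant values lay below the wild-type vehicle values, with 1 or 2 libraries of each of these groups per set and no test. In the farther-end set wild-type vehicle was 1 library, and all wild-type TAK-418 values lay below it too. The 18.7 of mutant vehicle lay above all wild-type TAK-418 values of that set. In the authors' deposited tables, which count a locus that also holds a second gene name, Homer1 was 42.0 FPKM in wild-type vehicle, 37.5 in mutant vehicle, 39.8 in wild-type TAK-418 and 37.0 in mutant TAK-418.

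The short form stood between 9.24 and 15.1 in 13 libraries, at 0.873 in mutant vehicle replicate 1, where its transcript was cut to 1433 bases against 5355 to 5793 in the rest. Its share of the long plus short form was 25.7%, 30.1% and 44.1% in wild-type vehicle, 5.31%, 25.4% and 44.4% in mutant vehicle, 30.2%, 42.7%, 42.5%, 38.6% and 32.3% in wild-type TAK-418 and 39.2%, 37.1% and 30.2% in mutant TAK-418 libraries. In wild-type vehicle replicate 3 these forms held 14.9 (short) and 18.9 (long) of a Homer1 total of 36.7, and the rest of the abundance is left out of the share. The share was 25.4% to 32.3% where the long form had the nearer end and 37.1% to 44.4% where it had the farther one, mutant vehicle replicate 1 aside. Group means were 33.3% ± 9.60 in wild-type vehicle, 25.0% ± 19.5 in mutant vehicle, 37.2% ± 5.77 in wild-type TAK-418 and 35.5% ± 4.70 in mutant TAK-418 libraries. No contrast reached the threshold, in a test with the same lowest possible p-values as that of the Grm5 share. The smallest p was 0.482 for TAK-418 in wild types (two-sided exact permutation test, adjusted p = 0.826). Immediate early genes, which are induced by activity as the short form is, were lower in wild-type TAK-418 than in wild-type vehicle for 10 of 11 measured members, with a median log2 difference of -0.39 against -0.0035 over all genes, and 0 passed the adjusted threshold. They were also lower for genotype under vehicle in 11 of 11 (median -0.38) and for treated mutants against vehicle wild types in 10 of 11 (median -0.29), and all 3 contrasts share the wild-type vehicle libraries. Most were higher in the contrasts without those libraries. These were TAK-418 in mutants, with 9 of 11 higher (median 0.096), and genotype under TAK-418, with 10 of 11 (median 0.106). The summed level of immediate early genes was 147, 238 and 227 in wild-type vehicle and 136 to 159 in wild-type TAK-418 libraries. Thus wild-type vehicle replicate 1 lay within the treated range. The short form itself overlapped between these groups, with 10.5 to 14.9 in wild-type vehicle and 11.1 to 15.1 in wild-type TAK-418 libraries.

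**Figure D3:**
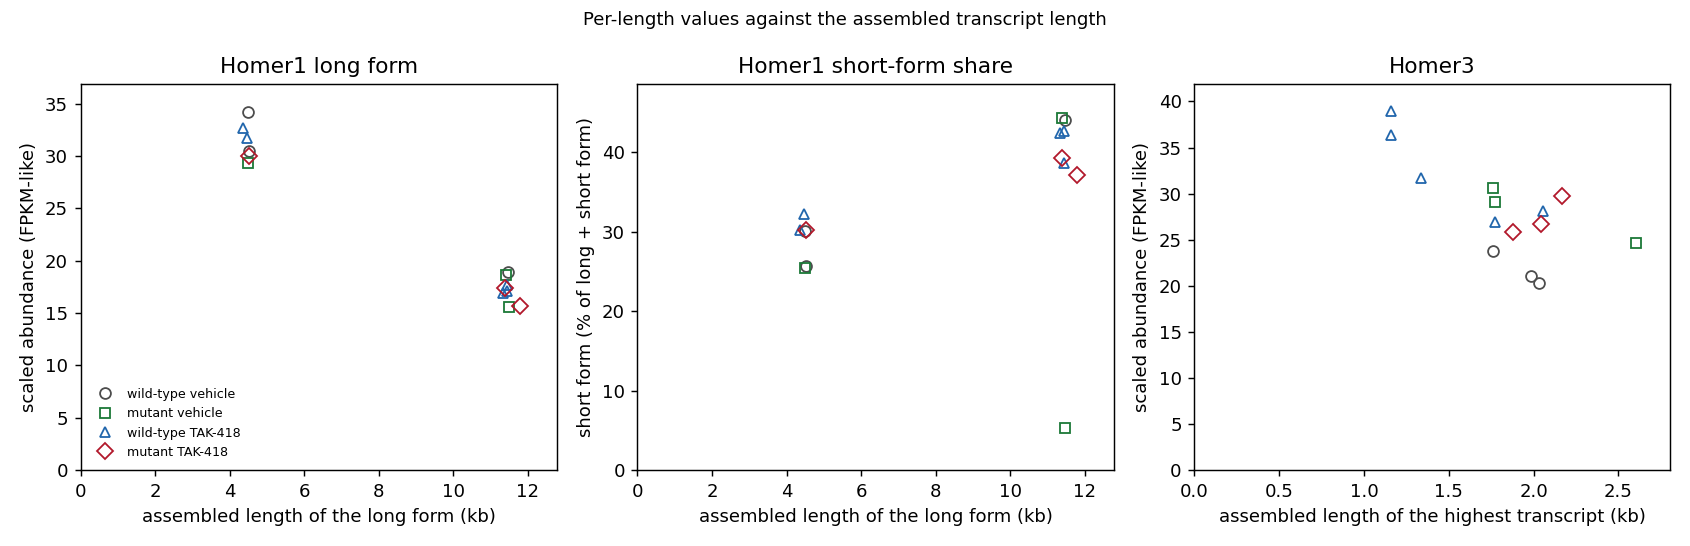
Homer1 long form (left, scaled abundance), Homer1 short-form share (middle, percent) and Homer3 (right, scaled abundance) against the assembled length in kb, 1 symbol per library and group. Homer1 long form falls in 2 sets, 29.3 to 34.2 at 4.36 to 4.52 kb and 15.6 to 18.9 at 11.3 to 11.8 kb. Homer3 is the gene total against the length of its leading transcript, and the highest totals belong to libraries where that transcript is shortest. In wild-type TAK-418 replicate 1 it held 17.4 of a total of 31.65.

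Homer3, a long Homer known from cerebellar Purkinje cells, is on chromosome 8 at 70282827 to 70294361 on the plus strand. Its level was 23.8, 21.1 and 20.3 in wild-type vehicle, 30.6, 24.6 and 29.1 in mutant vehicle, 31.7, 39.0, 26.9, 28.2 and 36.3 in wild-type TAK-418 and 25.8, 29.8 and 26.8 in mutant TAK-418 libraries. The wild-type vehicle libraries were the lowest 3 of 14 and overlapped with no other group. The log2 difference for TAK-418 in wild types was 0.55 ± 0.12 (limma adjusted p = 0.204), the smallest p of the 9 genes. For genotype under vehicle it was 0.35 ± 0.13 (limma adjusted p = 0.812), and for treated mutants against vehicle wild types 0.33 ± 0.13 (limma adjusted p = 0.887). The interaction was -0.58 ± 0.18 (limma adjusted p = 0.977), and it was -0.21 with abundance times length and -0.36 without the 3 libraries whose transcript ended early, described below. In the authors' deposited table of mutant vehicle over wild-type vehicle, Homer3 was 35.7 against 29.3 FPKM (q = 1.00). That of mutant TAK-418 over wild-type TAK-418 gives 34.8 against 34.1 FPKM, a log2 fold change of 0.03, where limma gave -0.22. The wild-type values of 29.3 and 34.1 come from 2 tables with no direct comparison.

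Assembled length varied with the Homer3 level too. In wild-type TAK-418 replicates 1, 2 and 5 the leading transcript ended 91 bases short of the annotated stop codon, inside the last coding exon, and was 1158 to 1334 bases long. In the other 11 libraries it ended 512 to 1111 bases past the stop and was 1761 to 2601 bases long. The 3 early-ending libraries had Homer3 levels of 31.7 to 39.0 and the 11 others 20.3 to 30.6. In replicate 1 the leading transcript held 17.4 of a Homer3 total of 31.65. These 3 libraries also stood apart in other measures. Replicate 1 had the greatest depth, at 168 M fragments. Replicates 2 and 5 had 2217 and 2315 single-exon transcripts, against 3741 to 7580 in the other libraries. Whether this bears on the assembled ends was not tested. Leaving out the 3 early-ending libraries was chosen after seeing the data. As they held the highest levels, all in wild-type TAK-418, this had to lower that group's mean. The interaction without them, given above, has the same limit. With replicates 3 and 4 left in the treated group, the log2 difference for TAK-418 in wild types was 0.33. Over all libraries and multiplied by length it was 0.17, while the genotype difference under vehicle was 0.43. The summed choroid plexus level was also apart in 1 mutant and 1 wild-type vehicle library, as given above, and without them the difference for TAK-418 in wild types was 0.50. The cerebellum markers, relevant because Homer3 is high in that tissue, summed to 0 to 6.06 over all libraries.

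Homer2, on chromosome 7 at 81600481 to 81707527 on the minus strand, was 13.02, 13.8 and 12.9 in wild-type vehicle, 11.1, 12.5 and 13.3 in mutant vehicle, 9.80, 13.9, 12.3, 9.45 and 14 in wild-type TAK-418 and 12.5, 11.9 and 12.7 in mutant TAK-418 libraries. After scaling, only mutant TAK-418 libraries lay wholly below the wild-type vehicle range, by a narrow margin, and the other groups overlapped with it. The highest mutant TAK-418 library was at 12.73 and the lowest wild-type vehicle library at 12.85. As deposited these groups overlapped, with mutant TAK-418 replicate 3 at 13.1 and wild-type vehicle replicate 1 at 12.79. The 2 lowest scaled values, in wild-type TAK-418 replicates 1 and 4, came with leading transcripts of 15552 and 15571 bases, against 10551 to 10614 in the rest.

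The other alternative stretches varied widely between libraries of a group. The longer Homer2 exon made up 43.5% to 53.4% of the Homer2 abundance that covers this site in wild-type vehicle, 8.21% to 54.5% in mutant vehicle, 19.2% to 65.6% in wild-type TAK-418 and 42.9% to 50.8% in mutant TAK-418 libraries. The added Grm7 exon was joined in 11.9% to 37.4% of the abundance that covers this site in wild-type vehicle, 13.1% to 38.1% in mutant vehicle, 6.24% to 35.6% in wild-type TAK-418 and 38.6% to 53.1% in mutant TAK-418 libraries. The mutant TAK-418 libraries were the 3 highest of the 14 in the Grm7 exon share. In Grm8 a longer form of 1 exon took 0% to 91.6% in single libraries, at a level where that form held 0 to 1.43 scaled units. These 3 shares were described only, with no test.

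**Figure D4:**
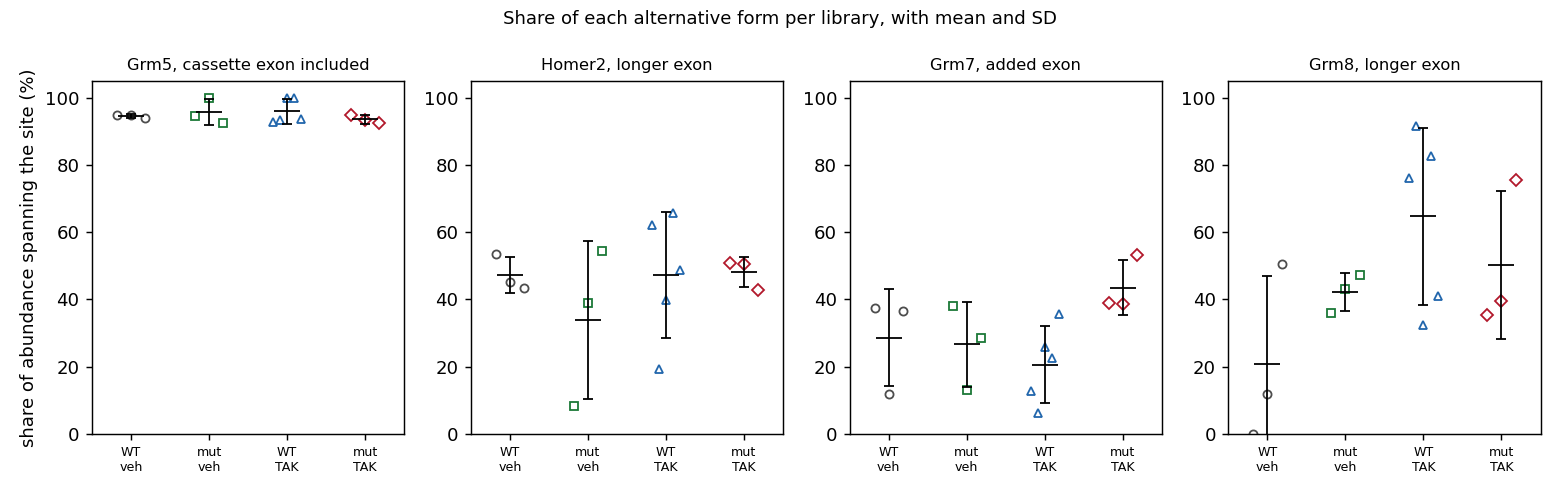
Share (percent of the abundance of transcripts that span the site) that carried the Grm5 cassette exon, the longer Homer2 exon, the added Grm7 exon or the longer Grm8 exon, per library and group, with mean and SD; the Grm8 whisker of wild-type vehicle is clipped at 0. The Grm5 share stayed between 92.5% and 100%, while the Grm8 share ran from 0% to 91.6%.

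Genes of the pathways around these receptors were followed as lists, and 0 of their measured members passed an adjusted p of 0.05 in any of the 8 contrasts (limma). At an unadjusted p under 0.05, 5.45% of all genes passed for genotype under vehicle and 8.44% for TAK-418 in wild types. That share was 4.39% for TAK-418 in mutants and 4.92% for genotype under TAK-418. In the list of Gq and phospholipase C signalling, which carries the Grm5 signal, 0 of 12 were higher and 2 lower at an unadjusted p under 0.05 for genotype under vehicle, and 1 was higher and 1 lower for TAK-418 in wild types. The 2 lower in mutants were Rgs4, a Gq and Gi signalling brake, at -0.23 ± 0.06 (limma adjusted p = 0.627), and Itpr1, the inositol trisphosphate receptor that Homer binds, at -0.27 ± 0.07 (limma adjusted p = 0.627). Itpr1 was also lower in treated mutants against vehicle wild types, at -0.30 ± 0.07 (limma adjusted p = 0.532), a contrast that shares the wild-type vehicle libraries. For genotype under TAK-418, which shares the mutant TAK-418 libraries with that contrast, Itpr1 was -0.17 ± 0.07 (limma adjusted p = 0.926). Among 12 Homer-binding scaffolds and channels, 2 were higher and 1 lower for TAK-418 in wild types, with Dlg4, the scaffold PSD-95, at 0.15 ± 0.04 (limma adjusted p = 0.280). For genotype under TAK-418 Dlg4 was -0.10 ± 0.04 (limma adjusted p = 0.926). In 9 genes of Gi and Go coupling, the adenylyl cyclase Adcy8 was 0.44 ± 0.17 for TAK-418 in mutants (limma adjusted p = 1), where it was the only one of the 9 at an unadjusted p under 0.05. For genotype under vehicle, which shares the mutant vehicle libraries, Adcy8 was -0.51 ± 0.17 (limma adjusted p = 0.733), and 2 of the 9 were lower at that level. Of 9 measured receptor-binding partners 1 was higher and 1 lower for genotype under TAK-418, where Elfn2, a postsynaptic partner of group III receptors, was -0.80 ± 0.30 (limma adjusted p = 0.926). The one higher was Elfn1, from the same family, at 0.84 ± 0.32 (limma adjusted p = 0.926), named after its value was seen. None of the 5 genes of glutamate uptake and recycling reached an unadjusted p under 0.05 in any contrast, and their median log2 difference for TAK-418 in wild types was 0.11.

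In the authors' deposited tables the 9 genes formed 10 loci, and 0 of 10 passed q under 0.05 in any of the 4 comparisons. Of all tested loci, 0.224% passed for mutant vehicle over wild-type vehicle, 0.324% for mutant TAK-418 over wild-type vehicle, 0.218% for mutant TAK-418 over wild-type TAK-418 and 0.611% for mutant vehicle over wild-type TAK-418. The lowest q of a member locus was 0.695, and the log2 fold changes ran from -0.27 to 0.29.

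The genes whose levels followed each member most closely were found by Spearman correlation over the 14 libraries, among 13273 genes present in all of them. For Grm2 they included Sdsl (rho 0.912) and Celf6 (0.899). For Homer3 they were Dcakd (0.886), Cemip (0.873) and Clasrp (0.851), and for Homer1 they were Herc4 (0.895), Vps37b (0.877) and Epop (0.868). For Homer2 they were Ercc6l2 (0.868), Wdr77 (0.837) and Zfp958 (0.807), and for Grm5 March8 (0.824), Golt1b (0.811) and Cacna2d1 (0.811). Grm3 was followed by Rnf144a (0.938), 2700081O15Rik (0.930) and Strn (0.916), and Grm7 by Pknox1 (0.921), Inpp5k (0.798) and Ncoa7 (0.793). Grm4 was followed by Kcng1 (0.842), Gpr153 (0.811) and Epor (0.807), and Grm8 by Zfp560 (0.881), Acacb (0.873) and Stk36 (0.864). The libraries shared depth and assembly effects, so these values describe the libraries only.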

How the data were processed

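Hippocampal RNA of 14 libraries was analysed from the authors' deposited files. The authors deposited assembled transcripts with a score per transcript, called Abundance, which per the file headers comes from CLASS 2.1.7 and behaves like an FPKM. They also deposited 4 tables of group FPKM, log2 fold changes, p-values and q-values for loci, in the layout of Cuffdiff, on pooled group values; the tool is not given in the sources used here. Reads were aligned with TopHat2 2.1.0 to mm10, per the submitters' processing notes. 2 library kits are named, without saying which library used which.

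Transcripts were assigned to GENCODE M21 genes by a shared intron, and single-exon ones by 50% overlap. Scores were summed per gene and scaled by median of ratios. Genes above 0 in at least 3 libraries were tested with limma 3.58.1 (R 4.3.3) on log2(value + 0.9), so differences of low genes are understated. Shares of transcript forms were compared by two-sided exact permutation tests. Sequences come from GENCODE transcripts. Both procedures were tested on simulated data. Levels are printed for all 9 members; fitted differences for members with an unadjusted p under 0.05 and the smallest p of a contrast; list genes, at most 2 per contrast. Likeness is given for the 3 closest genes, of which 1 is not reported here. Members and lists were chosen with earlier results of these data known. Alternatives were other scaling, pseudocounts, filters, transcript length and leaving out libraries. 0 table columns of single samples were unmatched.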

Additional observations from a re-analysis of the deposited data

Results flagged for a closer look

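Grm8 in wild-type TAK-418 replicate 3 stood at 4.113, far from the other 4 libraries of its group, which ranged from 1.33 to 1.89. It was the only 1 of 14 measures of the 9 genes and 5 transcript forms to stand apart in that group, and chance alone sets about 1 in 20 apart. The library's Grm8 was assembled in 4 pieces with a leading piece of 1694 bases, against 2 or 3 pieces and leading pieces of 2492 to 3613 bases in the other 4, and 199 fragments stood behind it.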

How the results depend on the processing

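The count of members past the adjusted threshold was 0 in all 137 alternatives over the 8 contrasts, with a smallest adjusted p of 0.176 (limma). The count at an unadjusted p under 0.05 moved by over 1.5 times in 42 of the 137: it ran from 0 to 2 for genotype under vehicle (2 as reported), from 0 to 3 for TAK-418 in mutants (1) and in wild types (2), and from 0 to 2 for the interaction (1). Leaving out 1 library in turn moved the Grm2 difference for TAK-418 in wild types over 0.19 to 0.22. Homer3 for genotype under TAK-418 turned from -0.22 to 0.22 with abundance times length. No share test passed in any alternative, an outcome that the test made close to certain. Its unadjusted p cannot go below 0.10 with 3 against 3 libraries, or below 0.0179 with 3 against 5. It therefore says little about how stable the shares are. With abundance times transcript length the Homer1 short-form difference was -0.995 percentage points for TAK-418 in wild types and -3.73 between treated mutants and vehicle wild types. By the number of assembled transcripts it was 0 in all 5 contrasts, as was that of the Grm5 cassette exon between treated mutants and vehicle wild types, since each library then counts alike. Among libraries with the farther Homer1 end only, a comparison chosen after seeing the data, it was -2.82 for TAK-418 in wild types and -5.90 between treated mutants and vehicle wild types. Leaving out 1 library in turn, it ran from -17.9 to 1.62 for genotype under vehicle, from -3.57 to 0.932 for genotype under TAK-418 and, between treated mutants and vehicle wild types, from -1.56 to 7.64; the Grm5 share ran from -0.923 to 2.76 for genotype under vehicle. The cause was not tested. No paired analysis was possible because the labels give no replicate numbers; those used here follow accession order and only name libraries. Depth limits Grm4 and Grm8, with as few as 394 and 165 fragments, and assembled length limits Grm2, Grm4, Grm8, Homer1, Homer2 and Homer3.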
